A study of Mus musculus with 12 samples.

Results

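The 10 genes described here, *Pecam1*, *Cdh5*, *Kdr*, *Tie1*, *Tek*, *Flt1*, *Emcn*, *Egfl7*, *Eng* and *Fabp4*, are markers of vascular endothelium, and they were followed in libraries of sorted heart muscle cells as a measure of endothelial RNA. They were taken by name, from a fixed list, out of the 48526 genes that each library lists. That list was chosen with earlier results of these data known, which limits each contrast with all genes below. All 10 were found and all 10 passed the filter on low counts in each comparison.

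Hearts of adult male *Ncam-1* WT and *Ncam-1* KO mice, both crossed with *Cntn2*-EGFP BAC transgenic mice, were dissociated, and the cells were stained with 50 nM TMRM, a mitochondrial dye that gives cardiomyocytes a red signal. Red cells with GFP were collected as Purkinje cells (PCs) and red cells without GFP as ventricular myocytes (VMs), so neither gate used an endothelial marker. Each genotype gave 3 PC libraries and 3 VM libraries, 12 in all. All groups carried the EGFP transgene, which was kept on a CD1 background, while the *Ncam-1* KO line was kept on C57BL/6, and *Ncam-1* is missing from all cells of the KO mice rather than from a single cell type. The labels do not say whether the replicates of a group came from separate mice, so each p-value below measures only the spread between these libraries.

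Endothelial cells line blood vessels and the inner surface of the heart, and capillaries run alongside nearly every cardiac myocyte. They are joined to each other by PECAM1 and VE-cadherin, are kept alive and quiescent by VEGF and angiopoietin signalling through receptor tyrosine kinases, and take up fatty acids for the muscle they supply. Transcription of many endothelial genes depends on ETS family factors, whose binding sites have the core GGAA.

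The promoters of *Flt1*, *Eng* and *Tek* are shown because these 3 receptor genes span the range from several matches to none, and because none of the windows reaches into an annotated transcript. Each window is the last 150 bases before the RefSeq start of the gene (GRCm38.p6), written 5′ to 3′ on the strand of the gene, with GGAAG or its reverse complement CTTCC in capitals. The windows are chr5:147726012-147726161 on the minus strand for *Flt1*, chr2:32646445-32646594 on the plus strand for *Eng* and chr4:94739139-94739288 on the plus strand for *Tek*.
Tek: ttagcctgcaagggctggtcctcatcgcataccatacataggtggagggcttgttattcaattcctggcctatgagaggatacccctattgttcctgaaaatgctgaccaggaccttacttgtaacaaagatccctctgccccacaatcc
Flt1: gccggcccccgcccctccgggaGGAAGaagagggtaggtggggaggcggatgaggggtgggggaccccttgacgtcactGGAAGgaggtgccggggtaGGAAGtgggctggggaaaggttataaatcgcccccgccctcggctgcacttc
Eng: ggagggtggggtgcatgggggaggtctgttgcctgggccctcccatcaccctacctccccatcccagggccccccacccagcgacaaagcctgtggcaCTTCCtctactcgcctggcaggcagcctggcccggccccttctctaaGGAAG

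*Flt1* held 3 matches to GGAAG in its window, *Eng* 2 and *Tek* none. This motif is narrower than the core GGAA, which the *Tek* window does hold on the other strand, as TTCC. The promoter table had entries for 7 of the genes (*Kdr*, *Tie1*, *Tek*, *Flt1*, *Emcn*, *Egfl7* and *Eng*), with several promoters for *Egfl7*. Over 250 bases before the start, 6 of the 7 held GGAAG on either strand in any promoter listed. Counted by promoter, 7 of 9 held it, against 64.1% of all 32851 promoters of that length. The GATA motif AGATAA, searched on both strands as AGATAA and TTATCT with no overlap with GGAAG, was in none of the 7 and in 9.99% of all promoters. A match describes the letters of the window and is not evidence of binding.

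Read pairs counted on genes ran from 13883427 to 42505705 per library, but 79.0% to 91.3% of them lay on mitochondrial genes, which left 1532393 to 6761356 for all other genes. Values are given as normalized counts, the raw counts scaled by TMM to a common library size, so that 1 normalized count is roughly 1 read pair in a library of average depth. *Ncam1* itself had 83, 34 and 116 counts in the WT PCs and 0, 1 and 1 in the KO PCs. *Cntn2*, the gene behind the sorting reporter, was at 237 to 533 normalized counts in WT PCs and at 2.22 to 8.99 in all VMs, but at 38.7 and 49.2 in KO PC 1 and 2 against 452 in KO PC 3. Library WT PC 2 stood apart, with 63.9% of its read pairs not aligned against 18.8% to 24.7% elsewhere and 11847 genes detected against 13571 to 18129.

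The sorted cells were cardiomyocyte preparations in which endothelial transcripts were present in every library at a low level. The 10 genes together took 0.00506% of the non-mitochondrial counts in KO VM 1 (95% Wilson interval 0.00419 to 0.00611%) and 0.112% in KO PC 1 (0.107 to 0.117%), the lowest and the highest share of the 12 libraries. These intervals cover counting error only. PC libraries held more of these transcripts than VM libraries in both genotypes. Their summed normalized counts were 1384, 1906 and 1341 in WT PCs, or 1544 ± 314 (SD, n = 3), and 889, 440.5 and 546 in WT VMs, or 625 ± 235. In the KO they were 3085, 1437 and 947 in PCs, or 1823 ± 1120, and 151, 578 and 498 in VMs, or 409 ± 227. No VM library reached the lowest PC library, though WT VM 1 lay close to KO PC 3. The ratio of the means was 2.47 between WT PCs and WT VMs and 4.46 between KO PCs and KO VMs. Without KO PC 1 the KO ratio was 2.91. In bulk RNA of this kind, a change in the number of endothelial cells and a change in the RNA of each cell cannot be told apart.

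**Figure D1:**
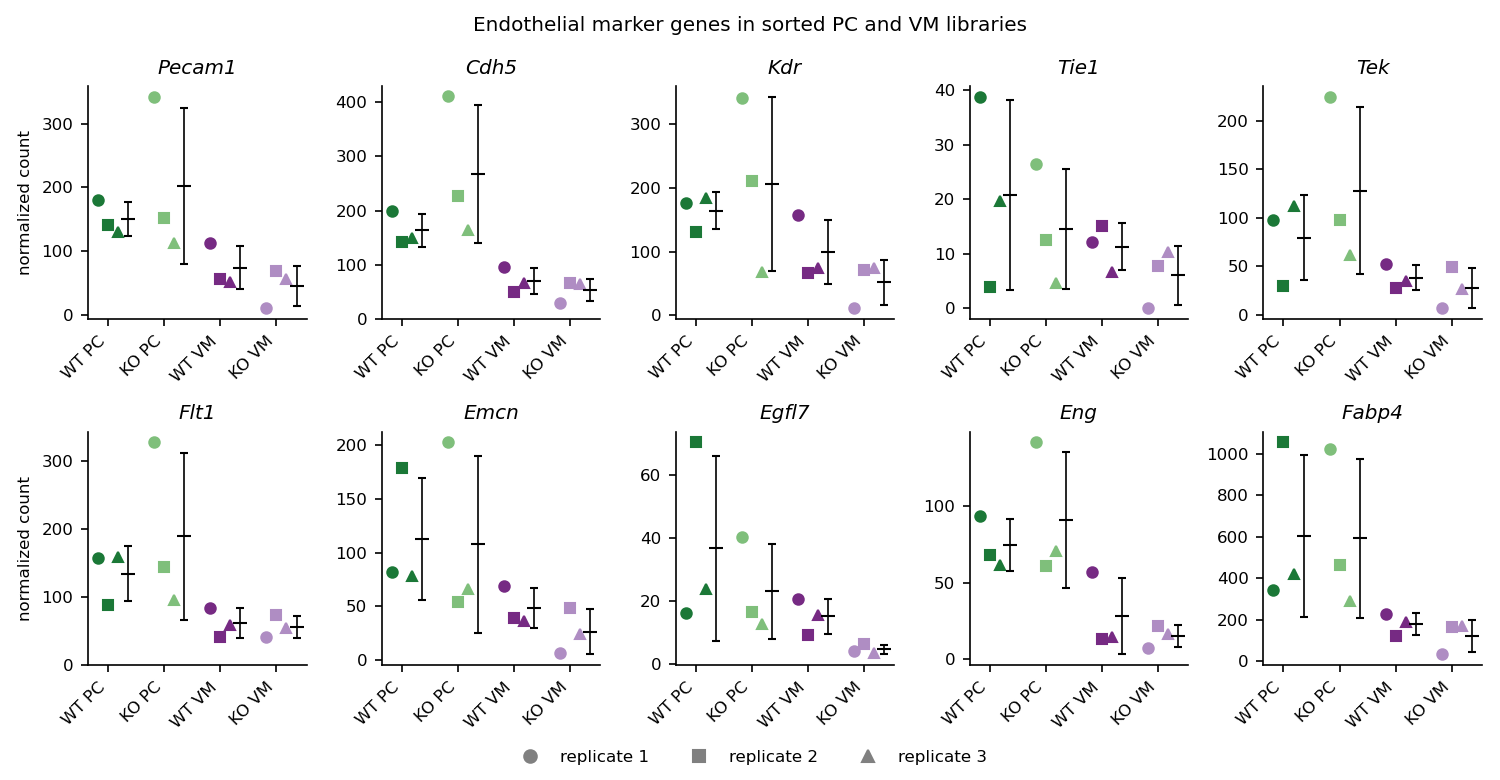
Normalized counts (vertical axes, linear, a scale for each gene) of the 10 endothelial genes in the PC and VM libraries of WT and KO. Each marker is a library, its shape gives the replicate number, and the black bars show the mean and SD of the 3 libraries. KO PC 1 is the highest library for 7 genes and KO VM 1 the lowest for 9, and for Cdh5, Flt1, Eng and Fabp4 all 6 PC libraries lie above all 6 VM libraries.

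Compared per length of the principal transcript, the order of the genes was much the same in each group. *Fabp4* was the most abundant, at 676 ± 436 normalized counts per kb in WT PCs (SD, n = 3) and 137 ± 86.0 in KO VMs, and *Emcn* came next in every group. *Tie1* was last in every group, at 5.08 ± 4.27 per kb in WT PCs and 1.48 ± 1.32 in KO VMs. The genes between them ran in WT PCs from *Tek*, at 17.1 ± 9.51 per kb, up to *Pecam1*, and some neighbours lay close together. *Egfl7* was at place 6 in both WT groups and at place 9 in both KO groups. In WT PCs *Pecam1*, at 45.8 ± 8.11 per kb, and *Cdh5*, at 41.0 ± 7.68, differed by less than their SDs, as did *Kdr* at 27.8 ± 4.99 and *Egfl7* at 26.4 ± 21.1.

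The genes of endothelial junctions, *Pecam1* and *Cdh5*, were higher in PCs than in VMs without overlap in either genotype. *Pecam1* (chr11:106654217-106750628, minus strand, GRCm38) encodes CD31, an immunoglobulin-type adhesion protein at contacts between endothelial cells. It was at 180.5, 140.4 and 130.0 normalized counts in WT PC 1, 2 and 3, and at 113, 56.5 and 51.8 in WT VM 1, 2 and 3. The KO PCs gave 343, 152 and 112, and the KO VMs 9.90, 68.1 and 56.7. Within each genotype every PC library lay above every VM library, but WT VM 1 lay just above KO PC 3. The log2 fold change of PC over VM was 1.01 (SE 0.364) in WT, with an adjusted p of 0.693 (quasi-likelihood test of edgeR, Benjamini-Hochberg adjustment over all genes, as for all p-values here). In the KO *Pecam1* rose by 2.11 (SE 0.469, adjusted p = 0.043 in edgeR's test), a call that was lost when any library other than KO PC 3 was left out.

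*Cdh5* (chr8:104101625-104144511, plus strand) encodes VE-cadherin, the calcium-dependent adhesion protein of endothelial adherens junctions, and its separation of PCs from VMs was the steadiest of the 10. WT PCs had 199, 142 and 149.7 normalized counts and KO PCs 411, 227 and 165. WT VMs had 96.6, 48.9 and 65.8 and KO VMs 29.7, 65.5 and 63.7. All 6 PC libraries lay above all 6 VM libraries. The PC over VM log2 fold change was 1.19 (SE 0.333, adjusted p = 0.57 by edgeR) in WT and 2.30 (SE 0.335, adjusted p = 0.00672) in the KO. Over both genotypes it was 1.75 (SE 0.294, adjusted p = 0.0052), and *Cdh5* kept an adjusted p under 0.05 in all 6 KO fits and all 12 joint fits that left out 1 library.

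Of the VEGF receptors, *Flt1* was higher in PCs without overlap, while *Kdr* overlapped between PCs and VMs. *Kdr* (chr5:75932827-75978458, minus strand) encodes VEGFR2, the main signalling receptor for VEGF-A. It was at 177, 131 and 185 normalized counts in WT PCs and 157, 66.8 and 74.7 in WT VMs. In the KO it was at 341, 211 and 67.5 in PCs and 11.3, 70.6 and 74.1 in VMs. WT VM 1 lay above WT PC 2, and KO PC 3 lay below KO VM 2 and 3, so the groups overlapped in both genotypes. Its PC over VM log2 fold change was 0.71 (SE 0.373) in WT and 1.92 (SE 0.522) in the KO, with adjusted p = 0.801 and 0.118 in edgeR's test.

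*Flt1* (chr5:147561604-147726011, minus strand) encodes VEGFR1, which binds VEGF-A tightly and limits its access to VEGFR2. WT PCs had 157, 87.8 and 159 normalized counts and WT VMs 84.4, 41.4 and 59.2. KO PCs had 329, 144 and 95.6 and KO VMs 41.0, 73.2 and 54.4. No VM library reached the lowest PC library, WT PC 2. *Flt1* rose in KO PCs over KO VMs by 1.71 on the log2 scale (SE 0.377, edgeR adjusted p = 0.0417) and over both genotypes by 1.43 (SE 0.302, adjusted p = 0.0249). The KO call was kept in 1 of the 6 fits that left out a library, the one without KO PC 3, and the joint call in 6 of 12, being lost without WT PC 3, WT VM 2 or 3, or any KO VM. In WT alone the difference was 1.12 (SE 0.382, adjusted p = 0.67).

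Neither angiopoietin receptor passed the adjustment in edgeR's test of all libraries, and only *Tek*, in the KO, was free of overlap. *Tek* (chr4:94739289-94874976, plus strand) encodes TIE2, the receptor of the angiopoietins. It was at 97.6, 29.3 and 112 normalized counts in WT PCs and 52.5, 27.3 and 34.8 in WT VMs, with WT PC 2 inside the WT VM range. In the KO the PCs, at 225, 97.2 and 61.5, lay above the VMs, at 7.07, 48.8 and 26.6. The log2 difference was 1.07 (SE 0.525) in WT and 2.15 (SE 0.512) in the KO, with edgeR adjusted p = 0.798 and 0.0643. *Tek* passed in WT without WT PC 2 (adjusted p = 0.0347) and in the KO without KO PC 3 (adjusted p = 0.0107), and limma voom called it in WT with all libraries. *Tie1* (chr4:118471191-118490061, minus strand), the related receptor that modulates TIE2 and has no angiopoietin of its own, was near the limit of detection. Its normalized counts were 38.8, 3.90 and 19.6 in WT PCs, 26.4, 12.6 and 4.68 in KO PCs, 12.2, 15.1 and 6.66 in WT VMs, and 0, 7.70 and 10.4 in KO VMs. WT PC 2 had 2 counts of *Tie1* and KO VM 1 had 0, a count that still allows up to 3. PCs and VMs overlapped in both genotypes, and neither the WT difference of 0.92 (SE 0.77) nor the KO difference of 1.13 (SE 0.907) passed an unadjusted p of 0.05. The WT difference was 0.17 without WT PC 1, and the KO difference 0.40 without KO PC 1 and 1.77 without KO VM 3.

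*Eng* (chr2:32646595-32682669, plus strand) encodes endoglin, a coreceptor for BMP9 and TGF-β family ligands on endothelium. It was at 93.7, 68.3 and 61.8 normalized counts in WT PCs and at 142, 60.6 and 70.8 in KO PCs. The WT VMs gave 57.2, 13.2 and 14.1 and the KO VMs 7.07, 21.8 and 16.2. All PC libraries lay above all VM libraries, although WT VM 1 stood close to KO PC 2 and well above the other VMs. *Eng* rose in KO PCs over KO VMs by 2.55 on the log2 scale (SE 0.433, edgeR adjusted p = 0.0122), the largest difference among the 10 in that comparison, and over both genotypes by 1.95 (SE 0.413, adjusted p = 0.0256). The KO call was lost without KO PC 1, KO VM 1 or KO VM 3, the highest adjusted p being 0.0632, and the joint call was kept in 6 of 12 fits, being lost without KO PC 1, WT VM 2 or 3, or any KO VM. In WT the difference was 1.39 (SE 0.593, adjusted p = 0.777), and it was 2.43 without WT VM 1. Exons of *Eng* share 61 bases with *Fpgs* on the other strand, which had at most 6 counts in a library.

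Among the surface and secreted products, *Emcn* (chr3:137341067-137432185, plus strand) encodes endomucin, a sialomucin of capillary, venous and endocardial surfaces. Its normalized counts were 81.9, 178 and 78.6 in WT PCs and 69.4, 39.5 and 36.2 in WT VMs. In the KO they were 202, 54.3 and 66.2 in PCs and 7.07, 48.8 and 24.3 in VMs. PCs lay above VMs within each genotype, but KO PC 2 and 3 were below WT VM 1. The log2 difference was 1.16 (SE 0.438) in WT and 1.95 (SE 0.538) in the KO, with edgeR adjusted p = 0.719 and 0.128.

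*Egfl7* (chr2:26580014-26593120, plus strand) encodes a secreted EGF-domain protein of endothelial matrix, and its gene hosts miR-126. It was at 16.1, 70.2 and 23.7 normalized counts in WT PCs and 20.6, 9.41 and 15.5 in WT VMs, which overlapped. The KO PCs, at 40.4, 16.4 and 12.7, lay above the KO VMs, at 4.24, 6.42 and 3.47, but the latter rest on only 3, 5 and 3 counts. Its log2 difference was 1.17 (SE 0.66) in WT and 2.22 (SE 0.692) in the KO, with edgeR adjusted p = 0.812 and 0.188. The WT difference was 0.37 without WT PC 2, the library with the highest *Egfl7*. Exons of *Egfl7* share 64 bases with *Agpat2* on the other strand, which had up to 102 counts in a library, and the use of strand in the counting is not given in the sources used here. They also share 264 bases with *Gm20532* and 73 with *Mir126a* on the same strand, which no use of strand could separate. *Gm20532*, *Mir126a* and *Mir126b*, which all share exon bases with *Egfl7*, had 0 counts in all 12 libraries.

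*Fabp4* (chr3:10204088-10208576, minus strand) encodes the fatty acid binding protein of capillary endothelium, also made by adipocytes and macrophages. WT PCs had 342, 1055 and 421 normalized counts and KO PCs 1025, 462 and 291. WT VMs had 227, 122 and 187 and KO VMs 33.9, 167 and 168. All PC libraries lay above all VM libraries. *Fabp4* rose in KO PCs over KO VMs by 2.23 on the log2 scale (SE 0.449, edgeR adjusted p = 0.0262), a call kept only without KO PC 3 among the fits that left out a library, and over both genotypes by 1.99 (SE 0.388, adjusted p = 0.0147), a call lost only without WT VM 2. In WT the difference was 1.71 (SE 0.433, adjusted p = 0.452), and it was 1.08 without WT PC 2. WT PC 2 had an unusual makeup, with *Fabp4* at 55.4% of the counts on the 10 genes (95% Wilson interval 52.2 to 58.5%) against 22.4 to 34.3% in the other 11 libraries.

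Across the 10 genes, PCs were above VMs in every comparison of the means. In WT the median log2 difference was 1.14, with a range of 0.71 to 1.71, against a median of -0.004 over all 11822 genes tested. None of the 10 passed the adjustment in edgeR's test, where 0.11% of all genes did. DESeq2 called 1 of them (*Fabp4*) and limma voom with sample weights 4 (*Cdh5*, *Tek*, *Flt1* and *Fabp4*), and without WT PC 2 edgeR called 3 (*Cdh5*, *Tek* and *Flt1*). At an unadjusted p under 0.05, 6 of the 10 were higher in WT PCs, against 5.14% of all genes. The same number, *Pecam1*, *Cdh5*, *Flt1*, *Emcn*, *Eng* and *Fabp4*, had every WT PC library above every WT VM library, against 7.29% of all genes. In the KO the median was 2.13, with a range of 1.13 to 2.55, against 0.009 over 10779 genes. Here 5 of the 10 passed the adjustment (*Pecam1*, *Cdh5*, *Flt1*, *Eng* and *Fabp4*), against 0.863% of all genes. The unadjusted threshold was passed by 9 of 10 against 7.11% of all genes, and 8 of 10 did not overlap against 8.66%. The number called was 1 without KO PC 1, KO VM 1 or KO VM 3, 2 without KO PC 2 or KO VM 2, and 7 without KO PC 3. Leaving out KO PC 1 brought the KO difference to 1.52 for *Pecam1*, 1.49 for *Tek*, 1.07 for *Flt1*, 1.16 for *Emcn* and 1.59 for *Egfl7* and *Fabp4*, and leaving out KO VM 2 brought it to 2.83 for *Tek* and 2.68 for *Emcn*. The number called was 1 (*Cdh5*) in a fit of all 12 libraries and 3 (*Cdh5*, *Flt1* and *Eng*) by DESeq2.

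Over both genotypes together, 4 of the 10 passed the adjustment in edgeR's test (*Cdh5*, *Flt1*, *Eng* and *Fabp4*), against 1.26% of 11323 genes, and 9 passed the unadjusted threshold, against 8.72%. The count was 8 without WT PC 2, 1 without WT VM 2 and 2 without WT VM 3 or any of the KO VMs. The same 4 genes had all 6 PC libraries above all 6 VM libraries, as had 1.4% of all genes. Within each genotype 6 did, the 4 with *Pecam1* and *Emcn*, against 2.2% of all genes. The comparisons share libraries, so they are not separate evidence.

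**Figure D2:**
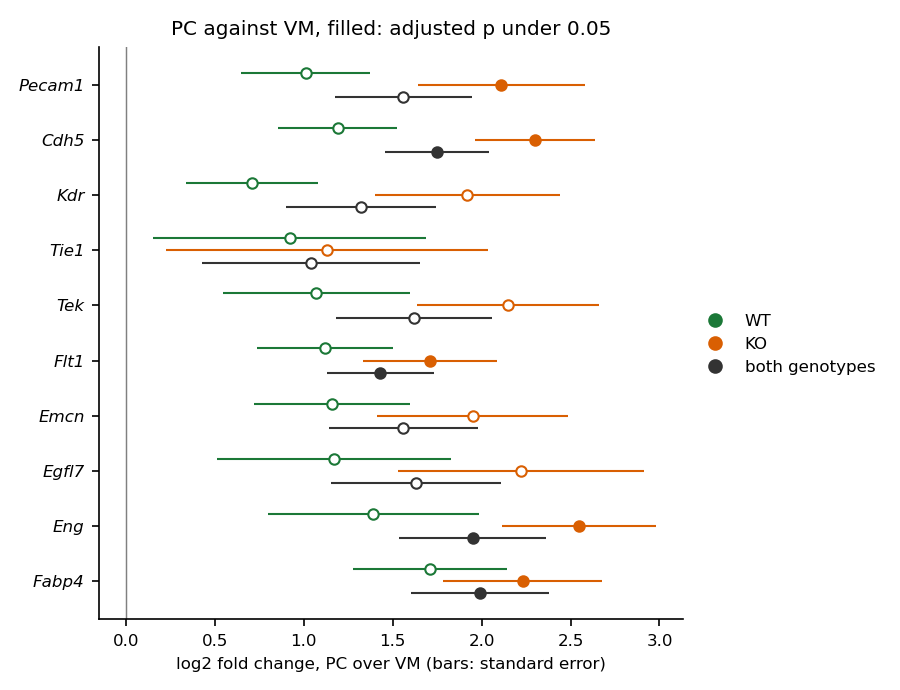
Log2 fold change of PC over VM (horizontal axis) for the 10 endothelial genes in WT, in the KO and over both genotypes, from edgeR's fit. Horizontal bars are standard errors and filled points have an adjusted p under 0.05. All points lie right of 0, from 0.71 to 1.71 in WT and from 1.13 to 2.55 in the KO, and the 5 filled KO points are Pecam1, Cdh5, Flt1, Eng and Fabp4.

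The comparison of genotypes asked whether loss of *Ncam-1* went with a different amount of endothelial RNA in either sorted fraction. In PCs it gave no call. Of the 10 genes 6 were higher and 4 lower in KO PCs, with a median log2 difference of 0.28 and a range from -0.64 for *Tie1* and *Egfl7* to 0.69 for *Cdh5*. No gene of the 10 passed the adjusted or the unadjusted threshold in edgeR's test, and DESeq2 and limma voom called 0 as well. Over all 11754 genes tested, 0% passed the adjustment and 3.22% the unadjusted threshold. Even *Ncam1*, the gene missing in the KO, was thus not called in this fit. A lack of calls here cannot show that levels were equal. All 10 genes overlapped between the genotypes. The KO PCs were themselves uneven. KO PC 1 was at 2.10 times the mean of the other KO PCs for *Cdh5* and up to 3.36 times for *Emcn*, and without it the *Pecam1*, *Kdr*, *Tek*, *Flt1* and *Eng* differences turned from 0.40, 0.29, 0.62, 0.45 and 0.26 to -0.18, -0.25, -0.03, -0.17 and -0.17. KO PC 1 was also low in *Cntn2*, as was KO PC 2, and its summed fibroblast and macrophage markers lay within the range of the WT PCs or below it. Its smooth muscle and pericyte markers summed to 6760.2 normalized counts, its arterial genes to 742 and its endocardial genes to 819, each the highest of the 12 libraries, where the WT PCs had at most 5159, 234 and 632. The largest single parts of these sums in KO PCs were *Abcc9* at 4159 ± 495, *Cxcl12* at 294 ± 219.9 and *Gata4* at 263 ± 37.3 (SD, n = 3). The part of these lists in the result was not tested.

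In VMs all 10 genes were lower in the KO on average, with a median log2 difference of -0.76 and a range of -0.13 for *Flt1* to -1.67 for *Egfl7*, against a median of -0.02 over all 10737 genes. No member passed the adjustment by edgeR, DESeq2 or limma voom, where edgeR called 0.0373% of all genes. *Kdr*, at -0.91 (SE 0.425, edgeR adjusted p = 0.931), and *Egfl7*, at -1.67 (SE 0.587, adjusted p = 0.931), passed the unadjusted threshold, as did 3.25% of all genes in that direction. *Egfl7* alone had every KO VM library below every WT VM library, against 5.03% of all genes. KO VM 1 was the lowest of the 12 libraries for the other 9 genes. It had 107 counts on the 10 genes, where the other KO VMs had 450 and 430, and its *Pecam1*, *Kdr* and *Tek* were at 0.159, 0.156 and 0.188 times the mean of KO VM 2 and 3. Without KO VM 1 the differences were -0.24 for *Pecam1*, -0.13 for *Cdh5*, -0.45 for *Kdr*, -0.30 for *Tie1*, -0.03 for *Tek*, -0.41 for *Emcn*, -0.55 for *Eng* and -0.10 for *Fabp4*. That of *Flt1* turned to 0.04 and that of *Egfl7* was -1.62. Without WT VM 1, *Eng* turned from -0.87 to 0.13 and *Flt1* to 0.14. Fibroblast and macrophage markers were also lowest in KO VM 1, at 94.8 and 17.0 summed normalized counts.

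Over both cell types the KO over WT log2 differences ran from -1.07 to 0.18 with 7 of 10 negative and a median of -0.25. None of the 10 passed the adjustment in edgeR, DESeq2 or limma voom, against 0.0353% of all genes in edgeR's test. *Egfl7* passed the unadjusted threshold at -1.07 (SE 0.476, edgeR adjusted p = 0.922), as did 3.36% of all genes in that direction. The genotype effect in PCs minus that in VMs was above 0 for all 10 genes, with a median of 1.06 and a range of 0.19 for *Tie1* to 1.21 for *Kdr*. None passed either threshold in edgeR's test, and DESeq2 and limma voom called 0 after adjustment. *Cdh5* had the smallest p, at a difference of 1.09 (SE 0.524, edgeR adjusted p = 0.999). Of all genes, 0% passed the adjusted and 2.9% the unadjusted threshold. The size of the PC over VM difference was thus not shown to differ between KO and WT.

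**Figure D3:**
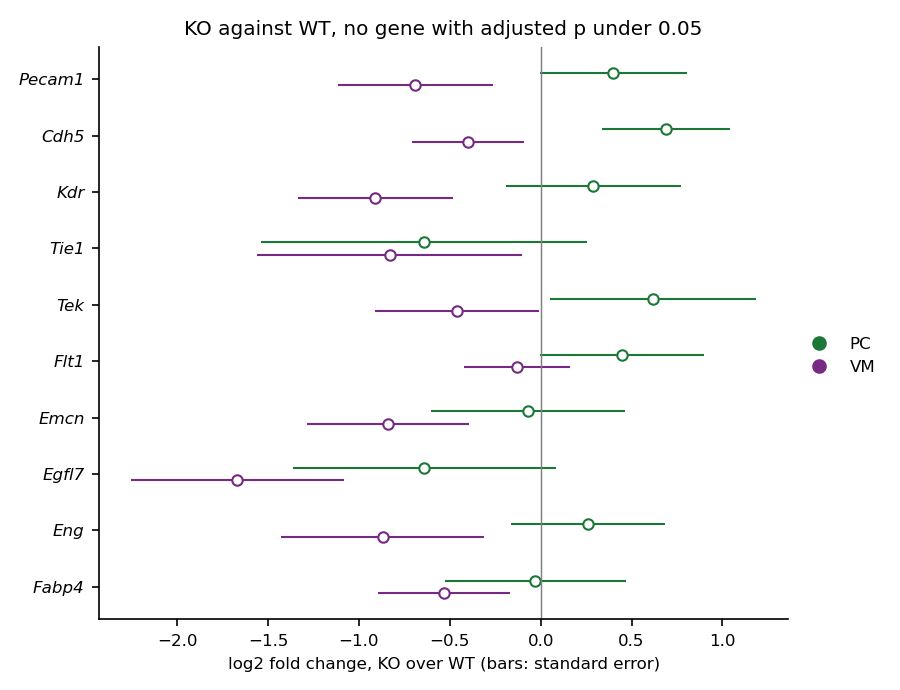
Log2 fold change of KO over WT (horizontal axis) for the 10 endothelial genes in PCs and in VMs, from edgeR's fit, with standard errors as horizontal bars. Open points have an adjusted p of 0.05 or more, which holds for all of them. The VM points all lie left of 0, from -1.67 for Egfl7 to -0.13 for Flt1, and the PC points lie on both sides, from -0.64 to 0.69.

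Other endothelial genes showed the same direction. Of 24 further pan-endothelial genes, 20 were tested over both genotypes, all 20 were higher in PCs, 3 passed edgeR's adjusted threshold and the median log2 difference was 1.46, against 0.021 for all genes. The 3 were *Arhgef15*, a guanine nucleotide exchange factor, at 2.57 (adjusted p = 0.0101), *Podxl*, the sialomucin podocalyxin, at 1.66 (adjusted p = 0.0135), and *Erg*, an ETS factor of endothelial identity, at 2.03 (adjusted p = 0.0395). Over both genotypes, defining genes under the filter on low counts included *Cldn5*, of endothelial tight junctions, with at most 49 counts in a library, and *Nos3*, the endothelial nitric oxide synthase, with at most 21. Of 10 capillary genes tested, 8 were higher and 3 passed. These were *Cav1*, the coat protein of caveolae, at 1.70 (adjusted p = 0.0117), *Ly6c1*, a surface antigen of capillary cells, at 2.03 (adjusted p = 0.0249), and *Gpihbp1*, which carries lipoprotein lipase to the capillary lumen, at 2.35 (adjusted p = 0.0493).

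The lists for vessel types were shorter, with 4 to 8 genes tested over both genotypes, and gave at most 1 call each. Of all genes, 1.26% passed in that direction. Of 8 arterial genes tested, all 8 were higher and none passed the adjustment over both genotypes by edgeR, though 4 passed the unadjusted threshold. In the KO alone *Cxcl12*, a chemokine of arterial endothelium and stroma, passed at 2.30 (adjusted p = 0.018). Among 6 venous genes 5 were higher and 1 passed, *Bgn*, the matrix proteoglycan biglycan, at 2.0 (adjusted p = 0.00396). Among 7 endocardial genes 6 were higher and 1 passed, *Cdh11*, a cadherin also of fibroblasts, at 1.42 (adjusted p = 0.0428). Of 4 lymphatic genes tested 2 were higher and none passed the adjustment by edgeR, with 2 at an unadjusted p under 0.05. Other tools were not applied to these lists.

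Lists of ligands and partners of the 10 proteins, many of which myocytes also make, had medians near 0. *Vegfa* was at 584 ± 256 normalized counts in WT PCs and 676 ± 145 in WT VMs (SD, n = 3), and *Nrp1*, a VEGF coreceptor, at 531 ± 90.7 and 517 ± 109. The 7 ligands and coreceptors tested had a median PC over VM difference of 0.07 over both genotypes, and 1 of them passed edgeR's adjusted threshold, *Nrp2*, a coreceptor with a role in lymphatic vessels and veins, at 1.70 (adjusted p = 0.0417). The 13 genes of endoglin and ALK1 signalling had a median of 0.22 and no adjusted call by edgeR, with 3 at an unadjusted p under 0.05. *Bmpr2*, a type II BMP receptor, was at 1889 ± 163 in WT PCs and 1716 ± 219.7 in WT VMs. The 8 genes of the VE-cadherin complex had a median of -0.02 and no adjusted call over both genotypes by edgeR, with 1 at an unadjusted p under 0.05. *Ctnna1*, alpha-catenin, was at 2287 ± 269 and 2181 ± 123. The endothelial phosphatase *Ptprb*, on that list and on the pan-endothelial one, passed in the KO, at 2.02 (adjusted p = 0.0189).

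*Fabp3*, the myocyte member of the *Fabp4* family, was at 2357 ± 367, 2839 ± 359, 2695 ± 380.1 and 3098 ± 343 normalized counts in PCs of WT and KO and then in VMs of WT and KO (SD, n = 3). *Cd36*, the fatty acid translocase of both capillaries and myocytes, was at 6924 ± 2115, 6428 ± 887, 7222 ± 781 and 7610 ± 967 in the same order. Defining adipocyte genes were absent, with 5 of 6 at 0 counts in all libraries and *Plin1* at no more than 1 count.

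**Figure D4:**
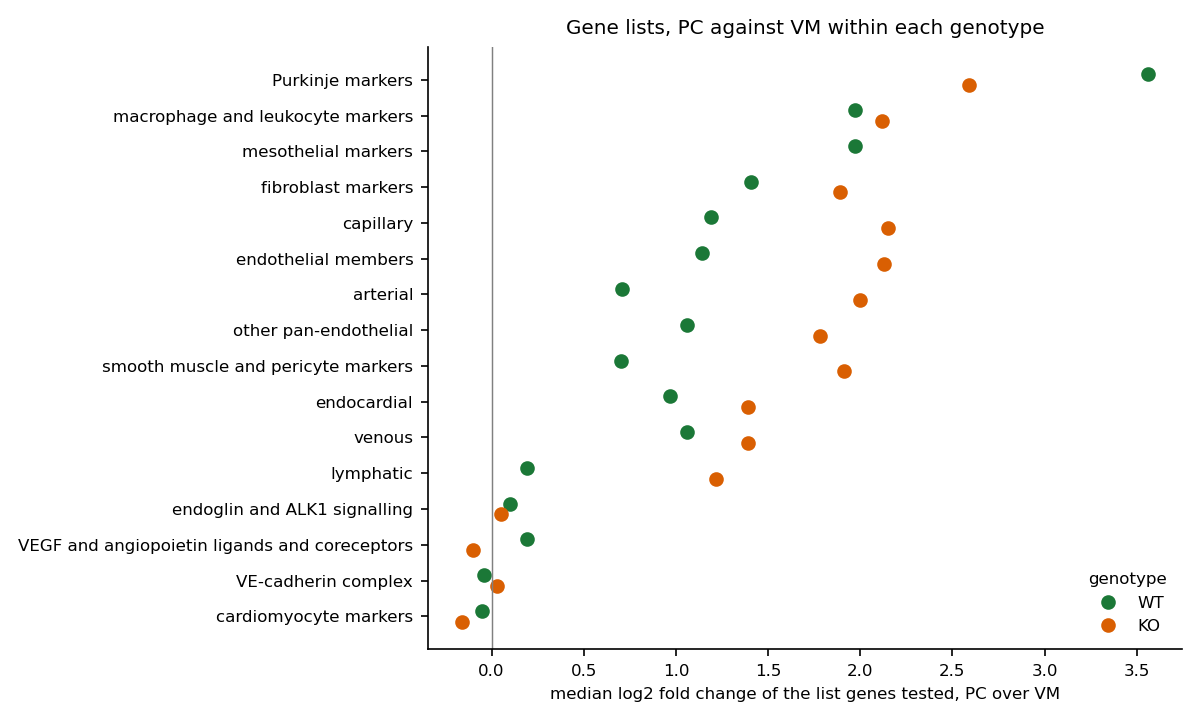
Median log2 fold change of PC over VM (horizontal axis) of the genes tested in each gene list, within WT and within the KO. Lists with fewer than 4 genes tested in a genotype have no point there, and erythroid genes are left out. The endothelial lists lie to the right of 0, at 1.14 and 2.13 for the 10 members, while cardiomyocyte, VE-cadherin complex, VEGF and ALK1 lists lie near 0.

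The endothelial genes were not alone in being higher in PC libraries. Of 9 fibroblast markers tested, all 9 were higher over both genotypes and 5 passed edgeR's adjusted threshold. The smallest p-values were those of *Dcn*, the proteoglycan decorin, at 2.03 (adjusted p = 0.00182), *Gsn*, the actin-severing protein gelsolin, at 2.21 (adjusted p = 0.00326), and *Lum*, the proteoglycan lumican, at 2.45 (adjusted p = 0.0033). The list's summed level was 1003 to 2325 normalized counts in WT PCs, 814 to 1343 in KO PCs, 297 to 535 in WT VMs and 94.8 to 433 in KO VMs. Of 9 macrophage and leukocyte markers, all 9 were higher and 3 passed, *C1qb*, *Lyz2* and *Mrc1*, a complement component, lysozyme and the mannose receptor, at 2.58, 2.23 and 1.60, with adjusted p = 0.00979, 0.0151 and 0.0461 by edgeR. Their summed level was 402 to 967 in WT PCs, 362 to 410.3 in KO PCs, 98.4 to 222 in WT VMs and 17.0 to 112 in KO VMs. For smooth muscle and pericytes 9 of 10 were higher and 1 passed, *Kcnj8*, a potassium channel subunit of pericytes, at 2.40 (adjusted p = 0.00987). The summed level of that list was 4100.1 to 5159 in WT PCs, 5214 to 6760.2 in KO PCs, 4298 to 4821 in WT VMs and 4539 to 4967 in KO VMs. *Abcc9* made up most of it, at 3319 ± 504 in WT PCs, 4159 ± 495 in KO PCs, 3869.7 ± 107 in WT VMs and 4281 ± 385 in KO VMs (SD, n = 3). *Rgs5*, the next largest part, was at 779 ± 114 and 1247 ± 545 in WT and KO PCs. It was at 434 ± 159 and 248 ± 227 in WT and KO VMs. *Abcc9* was on average lower in PCs than in VMs in both genotypes. The higher mean sum in KO PCs than in KO VMs thus did not follow *Abcc9*. The part of these cell types in the endothelial result was not tested.

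Of the remaining lists, the 4 mesothelial genes tested were all higher in PCs with no adjusted call by edgeR and 3 at an unadjusted p under 0.05, on summed levels of at most 99.7. Schwann and nerve markers summed to at most 15.9 in any library, with 2 of 6, among them *Sox10*, at 0 counts throughout. *Myh6*, the cardiac myosin heavy chain, was at 52393 ± 5133 normalized counts in WT PCs and 52084 ± 2173 in WT VMs (SD, n = 3). The 12 cardiomyocyte markers had a median PC over VM difference of -0.09, and their summed level was 452032 in WT PC 2, the lowest, and 545479.7 to 770598 in the other libraries. Scaled to these markers, the 10 endothelial genes had 27.5 ± 12.7 counts per 10000 cardiomyocyte marker counts in WT PCs, 31.2 ± 22.6 in KO PCs, 8.82 ± 2.45 in WT VMs and 5.74 ± 3.12 in KO VMs (SD, n = 3). Purkinje markers, which the sort selects for, summed to 1088 to 3476 in WT PCs and 106 to 216 in VMs. In KO PC 1, 2 and 3 they summed to 434, 424 and 1747, where the 10 endothelial genes summed to 3085, 1437 and 947. How these sums relate was not tested. Erythroid genes, which mark red blood cells, summed to 552, 3166 and 9.25 in WT PCs and 141, 77.2 and 8.14 in WT VMs, and to no more than 14.7 in any KO library. Of the 4 tested over both genotypes, all 4 were higher in PCs at an unadjusted p under 0.05 with a median log2 difference of 3.91, and all 4 were lower in KO PCs than in WT PCs at that threshold with a median of -7.94. None passed the adjustment in edgeR's test. WT PC 2, the highest of these, was also the library with the highest *Fabp4* and *Egfl7*. Its summed fibroblast markers, at 2325, and macrophage and leukocyte markers, at 967, were the highest of the libraries as well. The part of red blood cells or of these other cell types in those values was not tested.

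**Figure D5:**
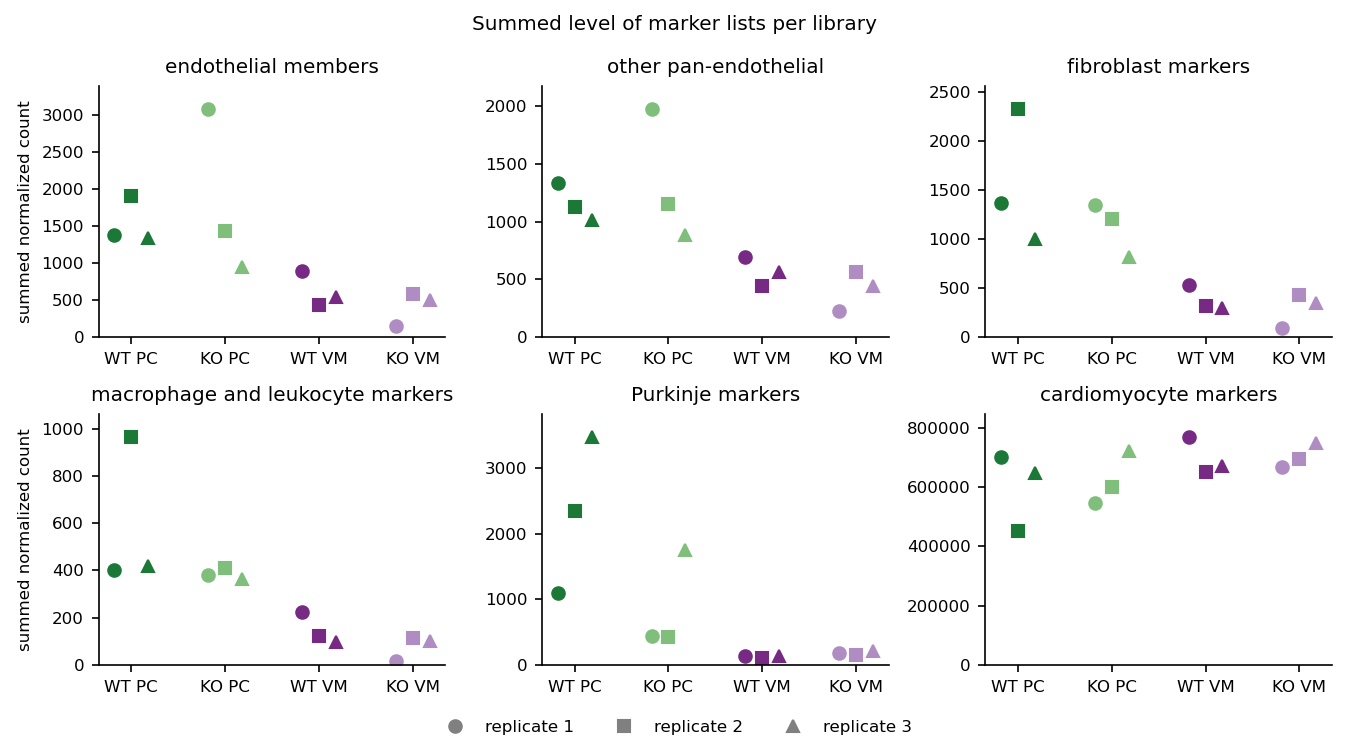
Summed normalized counts (vertical axes, linear, from 0, a scale for each list) of the endothelial members and 5 other marker lists in each library, with the marker shape giving the replicate number. Endothelial, fibroblast and macrophage sums are all higher in PC than in VM libraries, KO PC 1 is highest for the endothelial lists at 3085 for the members, and WT PC 2 is highest for fibroblasts at 2325 and macrophages at 967.

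The 10 genes moved together from library to library. The Pearson correlation of each with the mean of the other 9, on log2(normalized count + 2) over the 12 libraries, ran from 0.678 for *Tie1* and 0.735 for *Egfl7*, the least counted of them, to 0.985 for *Pecam1*, with the other 7 between 0.895 and 0.945. These are descriptions over 12 points that share their libraries, their depth and the contrast of PCs with VMs. By mean rank, with 1 as the highest library, KO PC 1 stood at 1.3 and WT PC 1 at 3.2, and KO VM 1 at 11.9. WT PC 2 did not follow one order. It was above the mean of the other WT PCs for *Egfl7* (3.53 times), *Fabp4* (2.77 times) and *Emcn* (2.21 times), and below it for *Tie1* (0.134 times), *Tek* (0.279 times) and *Flt1* (0.554 times). The principal transcripts of the first 3 are 1391, 896 and 1357 bases long and those of the other 7 are 3283 to 6895, so in this library the split went along with length, which was not tested further.

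Outside the lists, the genes most like the members were sought by the Pearson correlation with the mean of the 10 over 12 libraries, among 7998 genes with a mean normalized count above 20. The closest were *Cald1*, the actin-binding protein caldesmon, at 0.983, *Gm8995* at 0.981 and *Adgrf5*, an adhesion receptor, at 0.979. *Adgrf5* was at 402 ± 162 normalized counts in PCs and 121 ± 63.9 in VMs (SD, n = 6), and *Cald1* at 111 ± 41.4 and 40.9 ± 21.8. Among the next were *Prex2*, *Nes*, *Lrp1*, *Adamts5*, *Gimap4* and *Tagln2*, at 0.966 to 0.953.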

How the data were processed

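The 12 libraries were made from amplified total RNA of sorted cells (NuGEN Ovation Trio). The authors aligned read pairs to mm10 with STAR and counted them per gene with HTSeq, and deposited raw counts for each library, without normalization. The 5 HTSeq classes of pairs on no gene were left out of all tests. The methods name a GTF of an early GRCm38 annotation release, but the 48526 identifiers include newer ones, so the release used for counting is uncertain, and whether strand was used is not given in the sources used here. Positions and lengths came from GENCODE M21, which gives no symbol for 468 identifiers, and promoters from RefSeq.

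Groups followed the sample titles. WT libraries carry other numbers in their source names than in their titles, and the labels do not say whether PCs and VMs of one number shared a heart. Normalized counts were scaled by TMM. Each comparison used edgeR 4.0.16 (quasi-likelihood fit and test) in R 4.3.3 on the libraries concerned, with genes of mean normalized count above 5 and Benjamini-Hochberg adjustment over all genes tested, at a threshold of 0.05. The test of edgeR gives no standard error. Each SE, also in the figures, was taken as the log2 fold change without its sign over the square root of the test's F value. A pseudocount of 2 was used for correlations. Alternatives were DESeq2 1.42.0, its size factors in edgeR, omission of 37 mitochondrial genes, no filter, limma 3.58.1 voom with sample quality weights, a replicate block, one fit of 12 libraries, and omission of each library in turn. Only the step KO PC against KO VM was tested on simulated counts, with changes planted in genes of higher mean count. The other comparisons were not simulated. No libraries were duplicates (lowest chi-square over its degrees of freedom for a replicate pair, 7.03).

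The members and lists were chosen with earlier results of these data known. The genes named are the 10 members, at most 4 genes per list and comparison with an adjusted p under 0.05, at most 3 by mean count in lists with none, *Ncam1*, *Cntn2* and the 10 genes most like the members, of which 1 is not reported here. *Nrp1*, *Vegfa*, *Bmpr2*, *Ctnna1*, *Cd36*, *Plin1*, *Sox10*, *Cldn5*, *Nos3*, *Myh6*, *Abcc9*, *Rgs5*, *Gata4*, *Fpgs*, *Agpat2*, *Gm20532*, *Mir126a* and *Mir126b* were named for their place in a list or overlap, some after their values were seen.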

Additional observations from a re-analysis of the deposited data

How the results depend on the processing

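PCs stayed above VMs for all 10 genes in every alternative and every fit that left out a library, in WT, in the KO and over both genotypes, but the number of genes called changed. In WT it went from 0 to 1 with DESeq2, 1 without the filter and 4 with limma voom, and to between 0 and 3 with 1 library left out. In the KO it went from 5 to 3 with DESeq2, 8 without the filter and 1 in one fit of 12 libraries, and to between 1 and 7 with 1 library left out. Over both genotypes it went from 4 to 9 with DESeq2, 9 without the filter and 8 with limma voom, and to between 1 and 8 with 1 library left out. The cause was not tested. The ratio of summed levels was 2.15 to 3.13 in WT and 2.91 to 5.62 in the KO with 1 library left out. Genotype comparisons called 0 members under all alternatives. Over all genes the calls also moved. In WT PC against VM they went from 13 to 114 with DESeq2, 297 without the filter, 130 with voom, 38 in one fit and 4 with the block. In the KO they went from 94 to 326 without the filter and 8 in one fit, and over both genotypes from 145 to 459, 592 and 451 with DESeq2, no filter and voom. For the genotype, KO PC against WT PC went from 0 to 7, 132, 1, 3 and 1 with DESeq2, no filter, voom, one fit and the block, KO VM against WT VM from 4 to 10 and 47 with DESeq2 and no filter, 1 in one fit and 7 with the block, KO against WT from 4 to 15, 130 and 10 with DESeq2, no filter and voom, and the difference between genotype effects from 0 to 19 without the filter.

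Whether same-numbered libraries share hearts is not given, so the numbers were not treated as pairs in the main fits. The correlation between same-numbered libraries over 8100 genes was 0.207, 0.0813 and 0.15 for WT PCs and VMs and -0.00956, 0.121 and 0.0185 in the KO, and -0.075 to 0.0991 between genotypes. With the replicate block the members called were 0 in WT, 6 in the KO, 4 over both genotypes and 0 in each genotype comparison.

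Directions turned only in genotype comparisons, for values that passed no threshold. With limma voom, KO over WT turned to -0.12 for *Kdr* and 0.29 for *Fabp4* in PCs, to -0.16 for *Tek* over both cell types, and the difference between genotype effects to -0.31 for *Tie1*. With 1 library left out, KO over WT in PCs ran from -0.18 to 0.67 for *Pecam1*, -0.25 to 0.70 for *Kdr*, -1.34 to 0.14 for *Tie1*, -0.03 to 0.94 for *Tek*, -0.17 to 0.75 for *Flt1*, -0.86 to 0.35 for *Emcn*, -1.26 to 0.14 for *Egfl7*, -0.17 to 0.48 for *Eng* and -0.65 to 0.60 for *Fabp4*, the lowest always without KO PC 1. In VMs it ran from -0.34 to 0.14 for *Flt1* and -1.20 to 0.13 for *Eng*, the highest without WT VM 1. Over both cell types it ran from -0.46 to 0.13 for *Pecam1*, -0.09 to 0.36 for *Cdh5*, -0.26 to 0.34 for *Tek*, -0.16 to 0.33 for *Flt1*, -0.52 to 0.23 for *Eng* and -0.60 to 0.02 for *Fabp4*. The difference between genotype effects ran from -0.53 to 0.93 for *Tie1*, -0.06 to 0.90 for *Flt1*, -0.03 to 1.52 for *Emcn* and -0.14 to 1.15 for *Fabp4*. Depth limits *Tie1* and *Egfl7* most, which had 0 to 89 and 3 to 41 counts per library.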
